A study of Homo sapiens with 29 samples.

Results

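The data described here are the expression values of 41 lysosome genes in IMR90 ER:RAS cells, a line of human lung fibroblasts. The genes were chosen by symbol as lysosomal enzymes, including GLB1, lysosomal membrane proteins, proton pump subunits and the transcription factors TFEB and TFE3. All 41 were among the 28266 lines of counts, and all 41 passed the filter on low counts that left 13136 genes for testing. The cells carry a retroviral fusion of the estrogen receptor (ER) to RAS with the G12V change, which is switched on by 4-hydroxytamoxifen (4OHT) and drives oncogene-induced senescence (OIS). Libraries fell into 3 groups of 6, labelled as collected on day 7. DMSO_siNT cells received the solvent and a non-targeting siRNA, 4OHT_siNT cells received 4OHT and a non-targeting siRNA, and 4OHT_siSMARCA4 cells received 4OHT and an siRNA against SMARCA4, the ATPase of the SWI/SNF chromatin remodelling complex. Each arm used a pair of siRNAs, numbered 2 and 4. Libraries are named by siRNA number and set, and a set is a number followed by V or VM, letters whose meaning the labels do not give. All groups, the DMSO controls included, are labelled as the 1 cell line that carries the fusion, and all were transfected. For the library DMSO_siNT 4-2V, whose ESR1 value is given below, the fusion was not tested. No group holds DMSO cells with SMARCA4 knocked down. Nothing in the labels says that libraries of a group came from separate cultures, so p-values measure only the spread between these libraries.

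The lysosome is the acidic compartment where proteins, glycans and lipids from endocytosis and autophagy are broken down. Hydrolases are delivered to it mostly through mannose 6-phosphate receptors, a vacuolar proton pump keeps it acidic, and heavily glycosylated membrane proteins line it. TFEB and TFE3 are related transcription factors that enter the nucleus when the kinase mTOR is inactive and bind a palindromic motif, CACGTG with flanking bases, before many lysosomal genes. Senescent cells are known for an enlarged lysosomal compartment, and senescence-associated β-galactosidase, the stain most used to mark them, reads the enzyme encoded by GLB1.

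Promoters were compared for the known regulatory motif, which played no part in choosing the genes. RefSeq promoters of 300 bases (250 before and 50 after the annotated start, GRCh38.p14) were at hand for 28 of the 41 genes. Of those 28, 8 held CACGTG (28.6%), against 10.1% of 10330 promoters of tested genes and 7.43% of all 27305. The longer palindrome TCACGTGA, which contains CACGTG, was in 5 (17.9%), against 1.94% and 1.04%. The AP-1 motif TGANTCA was in 3 (10.7%), against 4.57% and 7.76%. Motifs were searched on both strands and are counts of letters, not of bound sites. The 8 genes with CACGTG were ATP6V0D1, CD63, CTSA, CTSD, GAA, LAMP1, MCOLN1 and NEU1. The last 150 bases before the start are given for MCOLN1, a calcium channel of the lysosomal membrane, and LAMP1, its most used marker protein, both picked after the matches were seen, and for NPC1 and FUCA1, a gene that rose steeply and a gene that fell in senescence and whose promoters held no CACGTG. Capitals mark CACGTG.
MCOLN1 (chr19:7522474-7522623, plus strand): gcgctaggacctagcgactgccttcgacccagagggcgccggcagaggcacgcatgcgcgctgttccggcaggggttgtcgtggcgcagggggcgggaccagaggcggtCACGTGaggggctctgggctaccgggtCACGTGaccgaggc
LAMP1 (chr13:113297089-113297238, plus strand): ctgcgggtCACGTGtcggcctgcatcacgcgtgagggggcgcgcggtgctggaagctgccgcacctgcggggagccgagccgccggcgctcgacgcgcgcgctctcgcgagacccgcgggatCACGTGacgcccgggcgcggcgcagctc
NPC1 (chr18:23586507-23586656, minus strand): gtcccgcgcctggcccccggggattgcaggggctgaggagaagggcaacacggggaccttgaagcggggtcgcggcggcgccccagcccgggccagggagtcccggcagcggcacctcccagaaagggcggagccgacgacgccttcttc
FUCA1 (chr1:23868291-23868440, minus strand): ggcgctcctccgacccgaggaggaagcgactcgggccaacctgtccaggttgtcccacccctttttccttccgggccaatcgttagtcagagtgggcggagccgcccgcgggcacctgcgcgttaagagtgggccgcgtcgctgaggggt

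Libraries held 9657309 to 18039313 counts. SMARCA4 lay between 275 and 330 CPM (counts scaled to library size) in 4OHT_siNT and between 70.4 and 141 CPM in 4OHT_siSMARCA4, so the knockdown was partial and its groups did not overlap. The library DMSO_siNT 4-2V stood apart. It had the lowest depth but the most genes detected, 17915. ESR1, which the transgene carries in part, was at 29.5 CPM in it against a DMSO_siNT mean of 980. Whether its cells carried the fusion was not tested. It was the lowest or the highest of its group for 29 of the 41 lysosome genes. The share of all genes for which this held was not taken, so the count is not read as particular to these genes. Counts of calls over the 41 genes are given with and without DMSO_siNT 4-2V, as are the values of those whose call in senescence it changed. The labels name V sets of 4OHT_siNT, but none of them had counts, so values within VM sets are given as well. The 10 fibroblast genes listed summed to 15340 to 39855 CPM in DMSO_siNT, 19920 to 31486 CPM in 4OHT_siNT and 10770 to 18877 CPM in 4OHT_siSMARCA4. Among them VIM and COL1A1 were at no less than 4107 and 1411 CPM in every library. The 10 macrophage and leukocyte genes listed summed to 0.499 to 1.53 CPM, 2.91 to 4.22 CPM and 1.94 to 4.12 CPM in the same groups. Of these, only AIF1 had no count in any library. Of the 10 fibroblast genes 5 fell in senescence (28.9% of all genes) and 1 rose (23.9% of all genes). With the knockdown 7 fell (5.65% of all genes) and 0 rose (4.99% of all genes). Without DMSO_siNT 4-2V, 7 fell in senescence (30.3% of all genes) and 8 with the knockdown (12.9% of all genes). The largest fall in senescence was by 5.17 on the log2 scale. The part of these falls in the lysosome results was not tested. More RNA of a gene per cell and more cells that express it cannot be told apart in these bulk libraries.

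Oncogene-induced senescence raised more of the lysosome genes than it lowered. Comparing 4OHT_siNT with DMSO_siNT, which asks what senescence did under control siRNA, 20 of the 41 genes were higher (48.8%) and 5 were lower (12.2%) at an adjusted p under 0.05 in edgeR's quasi-likelihood test, while 23.9% of all genes tested were higher and 28.9% lower. The median log2 fold change was 0.41 over the 41 genes and -0.05 over all genes. Values of 4OHT_siNT lay wholly above those of DMSO_siNT for 17 genes (17.0% of all genes) and wholly below for 2 genes (16.8% of all genes). Within VM sets alone, 22 genes were higher (25.6% of all genes) and 5 lower (27.9% of all genes). Without DMSO_siNT 4-2V the counts were also 22 (27.9% of all genes) and 5 (30.3% of all genes).

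**Figure D1:**
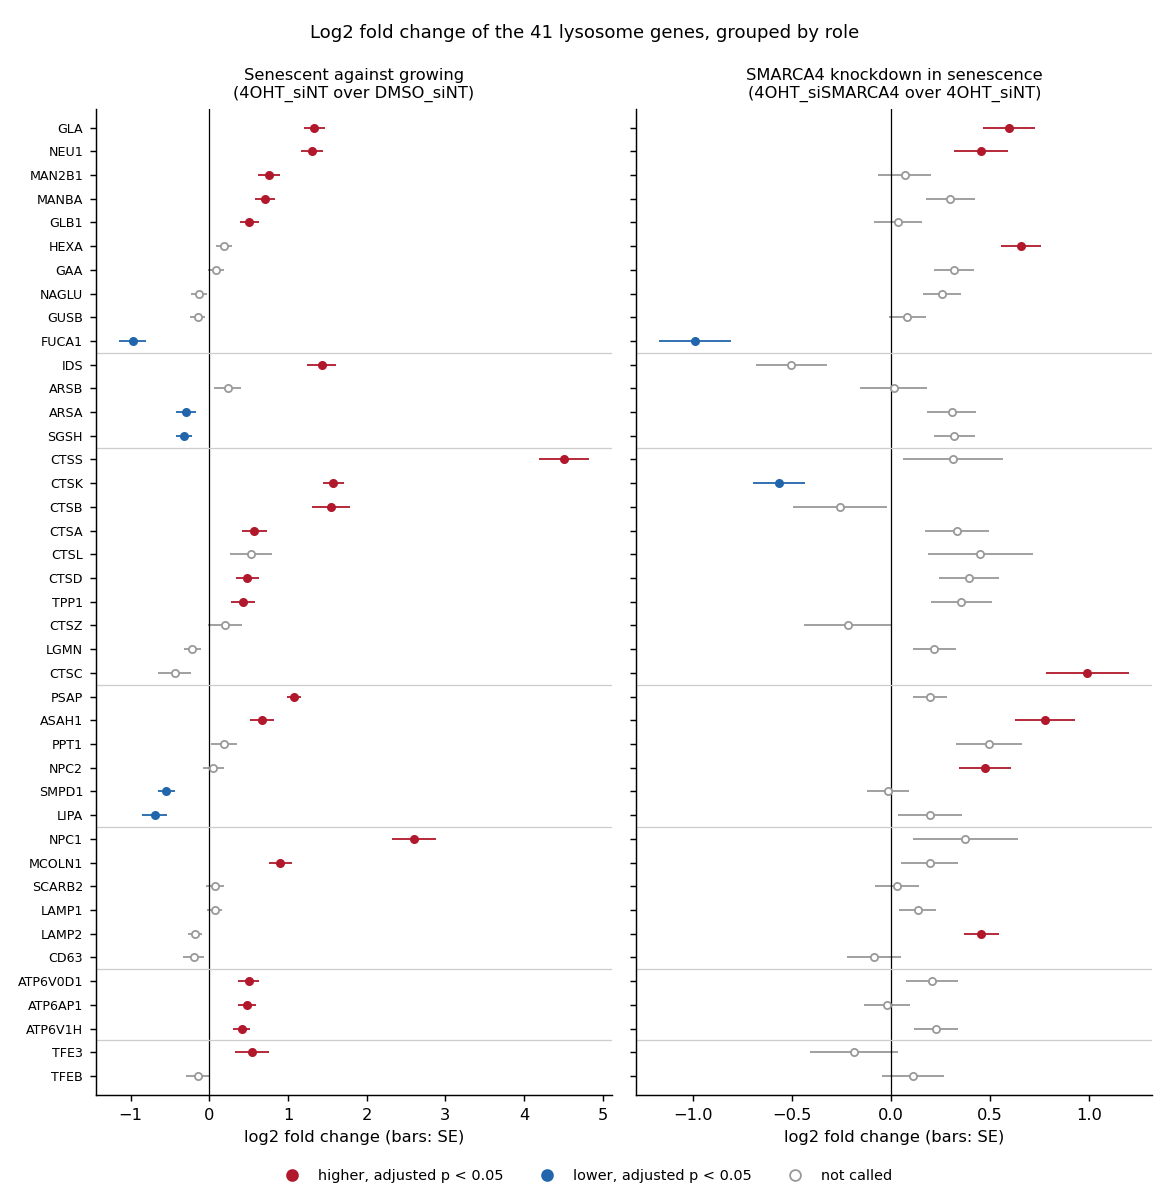
Log2 fold change (x axis, bars show the standard error) of the 41 lysosome genes (y axis) in senescence on the left and with SMARCA4 knockdown in senescence on the right, with different x scales; grey lines part the roles, which run from glycosidases at the top through sulfatases, proteases, lipid enzymes, membrane proteins and pump subunits to transcription factors. In senescence 20 genes were called higher and 5 lower, and with the knockdown 7 higher and 2 lower.

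The enzyme behind the senescence stain rose modestly. GLB1 (ENSG00000170266, chr3:32996609-33097202, minus strand) was at 52.1 to 99.6 CPM in DMSO_siNT (median 90.1) and at 110 to 131 CPM in 4OHT_siNT (median 120), and the groups did not overlap. Its level rose 1.42-fold (log2 0.51 ± 0.12 SE, adjusted p = 0.00172), and within VM sets by 0.37 on the log2 scale (adjusted p = 0.002). The lowest value, 52.1 CPM, was that of DMSO_siNT 4-2V, and without it the log2 fold change was 0.41 (adjusted p = 0.000141). One exon of GLB1 overlaps the gene TMPPE on the same strand, over 5.8% of its exonic bases.

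Counts by role in senescence stand beside 23.9% of all genes higher and 28.9% lower. Of the 10 glycosidases, which trim sugars from glycoproteins and glycolipids, 5 rose, 1 fell and 4 were not called, with a median log2 fold change of 0.35. GLA, the α-galactosidase whose loss causes Fabry disease, rose from a mean of 30.03 ± 2.05 CPM (SD, n = 6) to 75.7 ± 4.88 CPM, and NEU1, the lysosomal sialidase, from 79.96 ± 10.04 to 198 ± 8.05 CPM. Both log2 fold changes, 1.33 ± 0.13 for GLA and 1.31 ± 0.14 for NEU1, were past the threshold in each alternative tried. MAN2B1 and MANBA, which remove mannose, rose by 0.76 and 0.70 on the log2 scale. FUCA1 (ENSG00000179163, chr1:23845077-23868290, minus strand), the α-fucosidase, went the other way: it was at 7.29 to 14.6 CPM in DMSO_siNT (median 10.5) and 3.89 to 7.02 CPM in 4OHT_siNT (median 5.11), wholly below. Its log2 fold change was -0.97 ± 0.17 (adjusted p = 9.24e-05). HEXA, GAA, NAGLU and GUSB were not called, with log2 fold changes from -0.15 to 0.19. GUSB has 10 pseudogenes with lines of counts of their own, so its reads may be split.

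The sulfatases, which cleave sulfate from glycosaminoglycans and sulfolipids, divided. IDS, iduronate sulfatase, was at 69.6 to 172 CPM in DMSO_siNT (median 121) and at 301 to 356 CPM in 4OHT_siNT (median 314), with no overlap. It rose by 1.43 ± 0.18 on the log2 scale (adjusted p = 2.07e-06). SGSH, the heparan sulfamidase, was at 63.4 to 80.9 CPM (median 76.2) and then at 49.7 to 69.7 CPM (median 59.3), with overlap, and fell by 0.32 on the log2 scale (SE 0.10, adjusted p = 0.0139). ARSA, arylsulfatase A, was at 40.8 to 74.6 CPM (median 48.4) and then 38.9 to 46.1 CPM (median 41.2). These ranges overlapped, the adjusted p of 0.0499 sat at the threshold, and ARSA lost its call in 10 of 11 alternatives other than thresholds and leaving out libraries. Without DMSO_siNT 4-2V, which had its highest value, the log2 fold change of ARSA was -0.15 (adjusted p = 0.139).

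Among the 10 protease genes 6 rose and 4 were not called (median log2 fold change 0.51). CTSS (ENSG00000163131, chr1:150730079-150765957, minus strand), a cysteine cathepsin that stays active at neutral pH, was at 0.643 to 3.63 CPM in DMSO_siNT (median 1.33, at least 9 counts in each library) and at 37.99 to 47.8 CPM in 4OHT_siNT (median 43.9). Its rise of 22.7-fold (log2 4.505 ± 0.31, adjusted p = 5.7e-10) exceeded that of each other gene among the 41. CTSS is best known from antigen-presenting cells. Of 10 macrophage and leukocyte genes 2 passed the filter, LAPTM5 and FCER1G, and both rose. The list of 10 summed to 0.499 to 1.53 CPM in DMSO_siNT and to 2.91 to 4.22 CPM in 4OHT_siNT. At levels this low in DMSO_siNT the filter kept genes mainly for their 4OHT values, so a rise of those kept was built in. PTPRC, the pan-leukocyte marker, reached at most 0.359 CPM in any library.

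CTSK, a collagen-cutting cathepsin and the neighbour of CTSS on chromosome 1 (chr1:150794880-150809577, minus strand), was at 23.2 to 45.5 CPM in DMSO_siNT (median 31.3) and at 83.7 to 108 CPM in 4OHT_siNT (median 94.8). It rose 2.98-fold (log2 1.58 ± 0.14, adjusted p = 1.12e-08). CTSB, the most abundant cathepsin, was at 1021 to 3429 CPM (median 1328) and then at 3924 to 5681 CPM (median 4665). The value of 3429 CPM was that of DMSO_siNT 4-2V, with the next at 1410 CPM, and the log2 fold change was 1.55 ± 0.24 with it and 1.93 without it. CTSB also differed between the control siRNAs within 4OHT_siNT, at 3924 to 3997 CPM with siNT 2 and 5333 to 5681 CPM with siNT 4.

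CTSA, which protects NEU1 and β-galactosidase in a complex, and CTSD, an aspartic protease, rose by 0.57 and 0.49 on the log2 scale. TPP1, a tripeptidyl peptidase, rose by 0.43 with all libraries, but its log2 fold change was -0.032 with siNT 2 alone (adjusted p = 0.871) and 0.95 with siNT 4 alone, and the call was lost without DMSO_siNT 4-3VM (0.35, adjusted p = 0.0507). CTSL, CTSC, CTSZ and LGMN were not called. For CTSL the log2 fold change was 0.53 with all libraries (adjusted p = 0.0996) and 0.88 without DMSO_siNT 4-2V (adjusted p = 0.000585), where it stood at 347 CPM against at most 161 CPM in the others. LGMN, an asparaginyl endopeptidase, was called lower without that library (log2 -0.26, adjusted p = 0.038). The log2 fold change of CTSZ was 0.20 with all libraries and -0.090 within VM sets, and 31.7% of its exonic bases overlap NELFCD on the opposite strand, and whether counting used strand is not stated.

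Of the 6 lipid enzymes and lipid-binding proteins, 2 were higher, 2 lower and 2 not called. One of the latter, PPT1, which removes fatty acids from proteins, was at 116.5 CPM in DMSO_siNT 4-2V and at 50.1 to 70.1 CPM in the other DMSO_siNT libraries. Its log2 fold change was 0.19 with all libraries (adjusted p = 0.348) and 0.40 without that library (adjusted p = 0.00393), which makes 3 of the 6 higher. PSAP, the precursor of the saposins that present sphingolipids to their hydrolases, rose from 1249 ± 96.0 to 2634 ± 60.1 CPM (log2 1.08 ± 0.09). ASAH1, acid ceramidase, rose by 0.67 ± 0.15. LIPA, the acid lipase that frees cholesterol from its esters, was at 39.7 to 75.4 CPM in DMSO_siNT (median 63.0) and at 29.1 to 47.1 CPM in 4OHT_siNT (median 37.98), and the groups overlapped only through DMSO_siNT 4-2V. It fell by 0.69 on the log2 scale (SE 0.16, adjusted p = 0.00132). SMPD1, acid sphingomyelinase, was at 202 to 313 CPM (median 222) and then at 146 to 184 CPM (median 159), wholly below, and fell by 0.55 (SE 0.11, adjusted p = 0.000306).

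NPC1 (ENSG00000141458, chr18:23506184-23586506, minus strand), the membrane transporter that exports cholesterol, was at 5.26 to 34.8 CPM in DMSO_siNT (median 16.7) and at 106 to 130 CPM in 4OHT_siNT (median 120). Its rise was 6.07-fold (log2 2.60 ± 0.28, adjusted p = 2.75e-07). The low end was again DMSO_siNT 4-2V, and within VM sets alone the log2 fold change was 2.10 (adjusted p = 1.93e-08). NPC2, the soluble protein that hands cholesterol to NPC1, was not called (log2 0.05, adjusted p = 0.758). Of the other membrane proteins MCOLN1 rose by 0.90 ± 0.15, whereas LAMP1, LAMP2, CD63 and SCARB2, which coat the membrane or escort cargo, were not called and had log2 fold changes from -0.20 to 0.08. All 3 proton pump genes rose, ATP6V0D1 by 0.50, ATP6AP1 by 0.47 and ATP6V1H by 0.41 on the log2 scale.

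The transcription factors differed from each other in level and in change. TFEB was low in all groups: 4.03 to 6.55 CPM in DMSO_siNT (median 5.91), 4.08 to 6.69 CPM in 4OHT_siNT (median 5.06) and 4.29 to 6.83 CPM in 4OHT_siSMARCA4 (median 5.66). Its log2 fold change was -0.15 ± 0.16 in senescence (adjusted p = 0.45) and 0.11 ± 0.16 with the knockdown (adjusted p = 0.718). TFE3 was at 40.9 to 181 CPM in DMSO_siNT (median 168), 199 to 236 CPM in 4OHT_siNT (median 215) and 185 to 198 CPM in 4OHT_siSMARCA4 (median 190). Only DMSO_siNT 4-2V was below 159 CPM, and with it TFE3 rose by 0.54 ± 0.22 (adjusted p = 0.0463), a call lost on leaving out any of 13 of the other libraries. Without DMSO_siNT 4-2V the log2 fold change was 0.35 (adjusted p = 9.22e-05). Per kilobase of exon, mean TFE3 in DMSO_siNT was 35.4 CPM and TFEB 0.85 CPM.

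**Figure D2:**
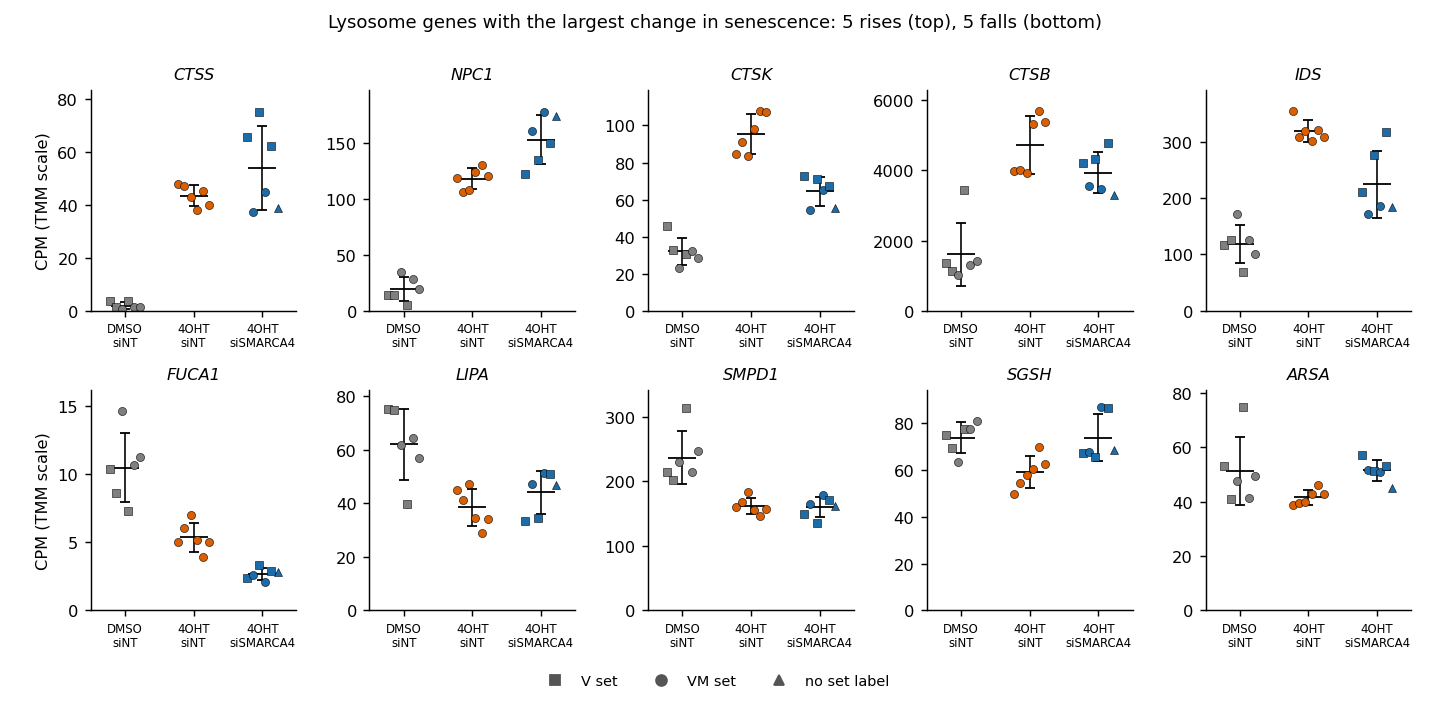
CPM (y axis, TMM scale) in each library of the 3 groups (x axis) for the 5 lysosome genes with the largest rises and the 5 with the largest falls in senescence; points are libraries, with shapes for V, VM and no set label, and bars are the mean and SD of 6 libraries. CTSS goes from at most 3.63 CPM in DMSO_siNT to at least 37.99 CPM in 4OHT_siNT, and the outlying DMSO_siNT square in CTSB, at 3429 CPM, is 4-2V.

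SMARCA4 knockdown in senescent cells raised 5 hydrolases, the lipid-binding protein NPC2 and the membrane protein LAMP2, and lowered FUCA1 and CTSK. Comparing 4OHT_siSMARCA4 with 4OHT_siNT, 7 of the 41 genes were higher (17.1%), against 4.99% of all genes tested, and 2 were lower (4.88%), against 5.65% of all genes. The 7 were CTSC, ASAH1, HEXA, GLA, NPC2, LAMP2 and NEU1, and the 2 were FUCA1 and CTSK. The median log2 fold change was 0.22 over the 41 genes and 0.01 over all genes. Groups did not overlap for 5 higher genes, HEXA, CTSD, ASAH1, PSAP and LAMP2 (5.12% of all genes), and for 3 lower genes, FUCA1, CTSK and TFE3 (6.27% of all genes).

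The number of calls depended on 1 library that is in neither arm. The common fit takes its spread from all 3 groups, and without DMSO_siNT 4-2V 15 lysosome genes were higher (36.6%), against 11.7% of all genes, and 4 were lower (9.76%), against 12.9% of all genes. Within VM sets alone, 15 were higher (8.76% of all genes) and 3 lower (12.2% of all genes). The 9 genes called with all libraries were among the calls in both cases. All 9 were also called with siSMARCA4_2 alone, but with siSMARCA4_4 alone only HEXA was. GLA, NEU1, FUCA1, CTSC, CTSK, ASAH1, NPC2 and LAMP2 lost their calls there.

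**Figure D3:**
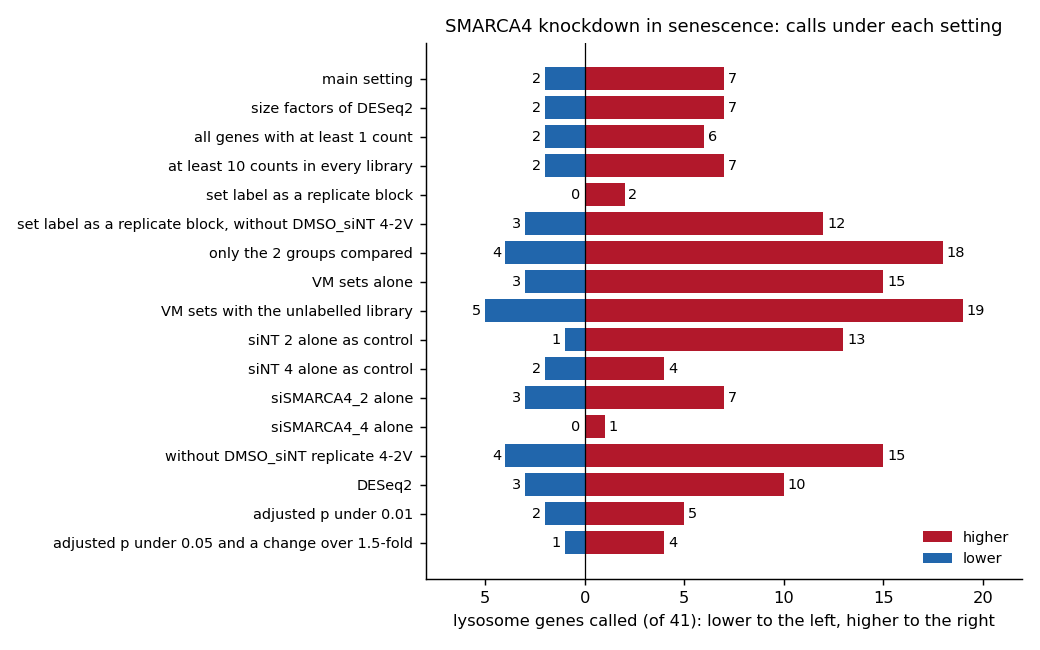
Number of the 41 lysosome genes (x axis) called higher, to the right, and lower, to the left, in 4OHT_siSMARCA4 over 4OHT_siNT under the main setting and each alternative (y axis). Calls higher run from 1 with siSMARCA4_4 alone to 19 within VM sets and the unlabelled library, and calls lower from 0 to 5.

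CTSC (ENSG00000109861, chr11:88265069-88359684, minus strand), the dipeptidyl peptidase that activates granule serine proteases, was at 112 to 184 CPM in 4OHT_siNT (median 133) and at 157 to 420 CPM in 4OHT_siSMARCA4 (median 269), and the groups overlapped. The rise was 1.99-fold (log2 0.99 ± 0.21, adjusted p = 0.00484), and 1.20 on the log2 scale within VM sets (adjusted p = 0.000775). With siNT 2 alone as control CTSC was not called (log2 0.72, adjusted p = 0.0729), nor was it with siSMARCA4_4 alone (log2 0.45, adjusted p = 0.254). In 4OHT_siNT, siNT 2 libraries held 150 to 184 CPM of it and siNT 4 libraries 112 to 116 CPM.

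ASAH1 was at 121 to 148 CPM in 4OHT_siNT (median 139) and at 179 to 279 CPM in 4OHT_siSMARCA4 (median 235), with no overlap. It rose 1.72-fold (log2 0.78 ± 0.15, adjusted p = 0.00241). HEXA (ENSG00000213614, chr15:72340924-72376420, minus strand), the α subunit of the hexosaminidase lost in Tay-Sachs disease, was at 113 to 135 CPM (median 126) and then at 158 to 233 CPM (median 203), also with no overlap. Its rise of 1.58-fold (log2 0.66 ± 0.10, adjusted p = 0.000371) was past the threshold in each alternative tried, siSMARCA4_4 alone included. HEXA had not been called in senescence itself.

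GLA (ENSG00000102393, chrX:101393273-101408012, minus strand) was at 68.8 to 83.7 CPM in 4OHT_siNT (median 75.6) and at 75.1 to 148 CPM in 4OHT_siSMARCA4 (median 117), and the groups overlapped. Its log2 fold change was 0.59 ± 0.13 (adjusted p = 0.00607). NPC2 was at 128 to 156 CPM (median 144) and then at 136 to 234 CPM (median 209), again overlapping, with a log2 fold change of 0.48 ± 0.13 (adjusted p = 0.0243), and this call was lost on leaving out any of 6 libraries. LAMP2, a membrane protein that also serves chaperone-mediated autophagy, rose from 207 ± 14.4 to 284 ± 20.6 CPM with no overlap (log2 0.46 ± 0.09, adjusted p = 0.00239). NEU1 rose from 198 ± 8.05 to 272 ± 66.6 CPM (log2 0.45 ± 0.14, adjusted p = 0.0383), a call lost on leaving out any of 11 libraries.

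FUCA1, already lower in senescence, was at 3.89 to 7.02 CPM in 4OHT_siNT and at 2.07 to 3.31 CPM in 4OHT_siSMARCA4 (median 2.73, at least 24 counts in each library), wholly below. It fell by 0.99 on the log2 scale (SE 0.18, adjusted p = 0.00169). CTSK was at 83.7 to 108 CPM and then at 54.6 to 72.6 CPM (median 66.4), also wholly below, and fell by 0.57 (SE 0.13, adjusted p = 0.00899). With siSMARCA4_4 alone neither was called, FUCA1 at log2 -0.95 (adjusted p = 0.0615) and CTSK at log2 -0.49 (adjusted p = 0.167). With siNT 2 alone as control CTSK was not called either (log2 -0.43, adjusted p = 0.074). CTSK thus stood 2.98-fold higher in 4OHT_siNT than in DMSO_siNT and at 0.675 of the 4OHT_siNT level in 4OHT_siSMARCA4. Both ratios use the same 4OHT_siNT libraries. Its neighbour CTSS was not called with the knockdown (log2 0.31 ± 0.25, adjusted p = 0.489), and its log2 fold change was -0.10 within VM sets.

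GLB1 did not pass the test with the knockdown: it was at 110 to 131 CPM in 4OHT_siNT and at 116 to 142 CPM in 4OHT_siSMARCA4 (median 120), with a log2 fold change of 0.03 ± 0.12 (adjusted p = 0.904). By role, the genes called higher were 3 of 10 glycosidases, 1 of 10 proteases, 2 of 6 lipid genes and 1 of 6 membrane proteins, and the genes called lower 1 glycosidase and 1 protease. These counts stand beside 4.99% of all genes higher and 5.65% lower. Without DMSO_siNT 4-2V, 6 glycosidases, 3 proteases, 3 lipid genes, 1 membrane protein and 2 sulfatases were higher, against 11.7% of all genes. Lower without that library were 1 glycosidase, 1 sulfatase, 1 protease and 1 transcription factor, against 12.9% of all genes. GAA, the acid α-glucosidase, sat at the threshold (log2 0.32 ± 0.10, adjusted p = 0.0505), and SGSH was next to it (log2 0.32, adjusted p = 0.0539). PPT1 and CTSD had log2 fold changes of 0.49 and 0.39, and both were called without DMSO_siNT 4-2V (adjusted p = 0.00235 and 0.00196). IDS, with 171 to 319 CPM in 4OHT_siSMARCA4 (median 199), was not called with all libraries (log2 -0.50 ± 0.18, adjusted p = 0.0783), and its log2 fold change was -0.85 within VM sets (adjusted p = 0.00119).

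**Figure D4:**
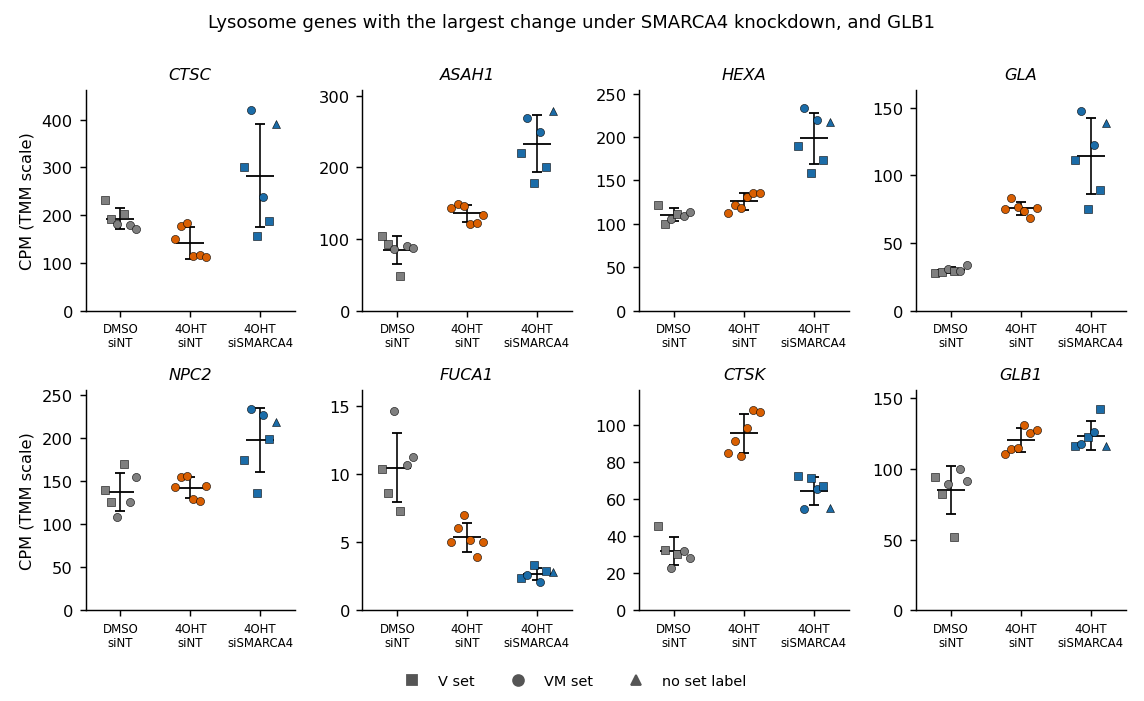
CPM (y axis, TMM scale) in each library of the 3 groups (x axis) for the lysosome genes with the largest changes under SMARCA4 knockdown and for GLB1; points are libraries, with shapes for V, VM and no set label, and bars are the mean and SD of 6 libraries. In the knockdown group the VM circles of HEXA, GLA, NPC2 and ASAH1 lie above the V squares, while GLB1 is at 116 to 142 CPM there and at 110 to 131 CPM in 4OHT_siNT.

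The lysosome genes also varied with the set within the knockdown group. For 15 of the 41 genes both VM libraries were above all 3 V libraries (15.0% of all genes tested), and for 5 both were below (16.1% of all genes). HEXA was at 158 to 189 CPM in V libraries and at 219 to 233 CPM in VM libraries, and GLA at 75.1 to 111 CPM and 123 to 148 CPM. CTSL was at 166 to 299 CPM in V libraries and 417 to 465 CPM in VM libraries. CTSS, CTSB, CTSK, IDS and ARSB ran the other way, CTSS with 62.3 to 74.8 CPM in V libraries and 37.1 to 44.8 CPM in VM libraries. The library with no set label, which these counts leave out, has a VM set in its column name but no matching sample title. It was at 217 CPM for HEXA, 139 CPM for GLA and 38.7 CPM for CTSS. Since 4OHT_siNT holds VM libraries only, the within-VM values above are those that compare like sets.

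The siRNA numbers were examined in a fit that set siSMARCA4_4 against siNT 4 and siSMARCA4_2 against siNT 2. None of the 41 genes had an effect that differed between these pairs in edgeR's quasi-likelihood test, against 0.0146% of all genes, the lowest adjusted p being 0.639. At an unadjusted p under 0.05 there were 3, HEXA, MAN2B1 and SCARB2, and DESeq2 also called none. HEXA had log2 fold changes of 0.86 with the siRNAs numbered 2 and 0.44 with those numbered 4. The siSMARCA4_4 libraries were of sets 2V, 3V and 2VM. Those of siSMARCA4_2 were of sets 3V and 3VM and the library with no set label. Differences between siRNAs and between V and VM sets are thus mixed in this fit and cannot be told apart. The sign was the same in both pairs for 33 of 41 genes. For this count and the 3 genes above, shares of all genes were not taken. Neither count is therefore read as particular to the lysosome genes.

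Set against growing cells, senescent knockdown cells had 26 lysosome genes higher (63.4%), against 23.3% of all genes, and 3 lower (7.32%), against 27.3% of all genes, with a median log2 fold change of 0.55 against -0.04. This comparison shares its arms with the others, so only its own values are given. GLA stood 3.80-fold higher than in DMSO_siNT (log2 1.93 ± 0.14), ASAH1 2.74-fold (log2 1.45 ± 0.15), CTSK 2.01-fold, HEXA 1.80-fold, GLB1 1.45-fold, NPC2 1.44-fold and CTSC 1.47-fold. FUCA1 stood at 0.257 of its DMSO_siNT level (log2 -1.96 ± 0.18).

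Together the 41 genes took between 0.854 and 0.947% of all counts in DMSO_siNT libraries, between 1.38 and 1.498% in 4OHT_siNT libraries and between 1.43 and 1.60% in 4OHT_siSMARCA4 libraries. On the TMM scale their summed level was 8981 ± 993 CPM (SD, n = 6), 14712 ± 899 CPM and 15431 ± 490 CPM. CTSB, PSAP, CD63, CTSD and LAMP1, the most abundant, made up 54.2 to 67.8% of the members' counts in DMSO_siNT and 65.0 to 69.0% in 4OHT_siNT. CTSB alone went from 12.4 to 15.3% of them, or 31.7% in DMSO_siNT 4-2V, to 28.1 to 36.1% in 4OHT_siNT and 21.5 to 30.5% in 4OHT_siSMARCA4. Without those 5 genes the summed level was 3675 ± 141, 4856 ± 44.9 and 5747 ± 486 CPM, and the 3 groups did not overlap. Per kilobase of exon the highest mean levels in 4OHT_siNT were those of PSAP, 846 CPM, CD63, 494 CPM, and CTSB, 448 CPM.

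**Figure D5:**
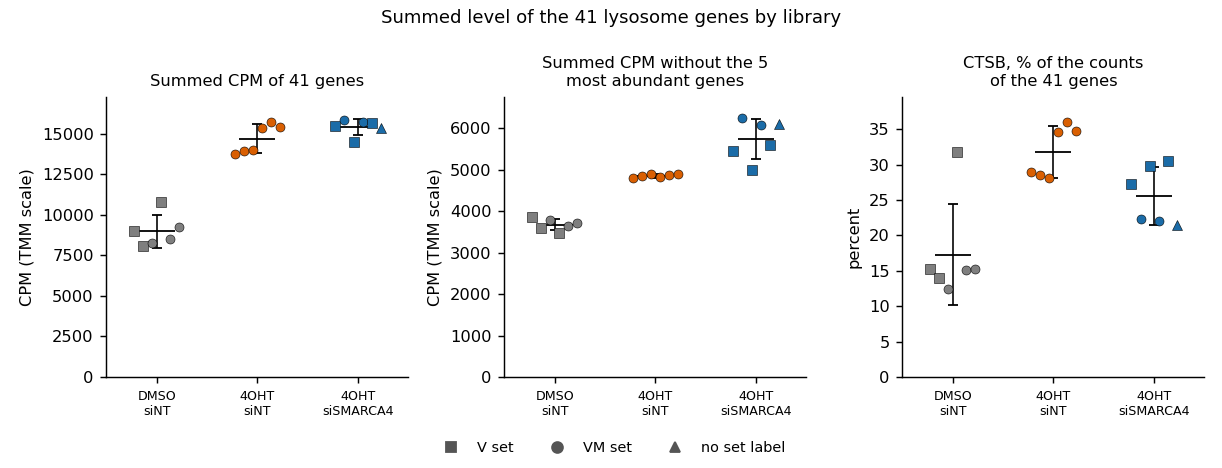
Summed CPM of the 41 lysosome genes, the same without CTSB, PSAP, CD63, CTSD and LAMP1, and the percent of the genes' counts that fell to CTSB (y axes), in each library of the 3 groups (x axis); shapes mark V, VM and no set label, and bars are the mean and SD of 6 libraries. Without those 5 genes the group means are 3675, 4856 and 5747 CPM, and the DMSO_siNT point at 31.7% for CTSB is 4-2V.

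Other genes of the same pathway were read from lists set by function, and their counts stand beside the shares of all genes called, 23.9% higher and 28.9% lower in senescence and 4.99% higher and 5.65% lower with the knockdown. Of 19 other proton pump subunits tested 11 rose (57.9%), 3 fell (15.8%) and 5 were not called in senescence (median log2 fold change 0.43), and 4 rose (21.1%) and 1 fell (5.26%) with the knockdown (median 0.23). Without DMSO_siNT 4-2V, 8 of them rose (42.1%, against 11.7% of all genes) and 2 fell (10.5%, against 12.9%) with the knockdown. ATP6V1B2 and ATP6V0A1 rose by 1.34 ± 0.11 and 1.26 ± 0.13 on the log2 scale in senescence. ATP6V0D2, an isoform of the d subunit typical of osteoclasts, had at most 3 counts in any DMSO_siNT library, 4.64 to 6.87 CPM in 4OHT_siNT and 8.13 to 30.4 CPM in 4OHT_siSMARCA4, a further log2 change of 1.52 ± 0.28 (adjusted p = 0.00184). ATP6V0D2 is among the 11 that rose in senescence, but it passed the filter through the 4OHT groups. A fall in senescence could not have been seen for it. ATP6V0E1 and TCIRG1 also rose with the knockdown, by 0.57 and 0.50, and TCIRG1 had fallen by 0.27 in senescence. ATP6V1E2 fell by 1.10 in senescence.

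The list of hydrolases outside the 41 also holds proteins that are not hydrolases, such as SUMF1. Of its 31 genes tested, 8 were higher (25.8%) and 9 lower (29.0%) in senescence, shares near those of all genes. Their median log2 fold change was -0.04. ACP5, the tartrate-resistant acid phosphatase, rose by 4.09 ± 0.28 and ARSG by 1.72 ± 0.18, while GGH, SUMF1 and CTSF fell by 1.27, 1.19 and 1.09. With the knockdown 3 were higher (9.68%), among them DNASE2, the lysosomal nuclease, at log2 0.82 ± 0.16, and GALC at 0.61 ± 0.10. Of 23 other membrane proteins 6 rose and 6 fell in senescence (26.1% each), again near the shares of all genes, TPCN1, SLC36A1 and CLCN7 by 1.45, 1.40 and 1.08 upward and TMEM192, MFSD8 and LMBRD1 by 2.04, 0.76 and 0.66 downward. With the knockdown 5 were higher (21.7%), led by OSTM1, the partner of CLCN7 (log2 0.81 ± 0.14), CLN3 (0.55 ± 0.14) and CTNS (0.47 ± 0.14). Without DMSO_siNT 4-2V the knockdown counts were larger. Then 8 of the hydrolase list (25.8%) and 10 of the membrane proteins (43.5%) were higher, against 11.7% of all genes. In each list 1 was lower (3.23% and 4.35%, against 12.9%). TMEM192 was at 144 CPM in DMSO_siNT 4-2V and at 22.4 to 32.98 CPM in the other DMSO_siNT libraries, and without that library its log2 fold change was -1.30 (adjusted p = 1.87e-07).

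Genes that sort hydrolases to the lysosome went both ways, with 4 of 9 higher (44.4%) and 3 lower (33.3%) in senescence. The mannose 6-phosphate receptors IGF2R and M6PR rose by 1.13 ± 0.29 and 0.84 ± 0.20 and the adaptor GGA1 by 0.88 ± 0.15, while NAGPA, which uncovers the mannose 6-phosphate tag, SORT1 and GGA2 fell by 1.01, 0.98 and 0.56. With the knockdown NAGPA rose by 0.92 ± 0.13 (adjusted p = 0.000223) and SORT1 fell by 0.85 (SE 0.20, adjusted p = 0.00838). NAGPA was at 18.3 to 24.6 CPM in DMSO_siNT, 9.06 to 10.7 CPM in 4OHT_siNT and 14.6 to 24.7 CPM in 4OHT_siSMARCA4.

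Of 16 genes that control the TFEB family, 3 rose and 3 fell in senescence (18.8% each, median log2 fold change 0.12), and 2 rose and 1 fell with the knockdown (median 0.14). RRAGD, a Rag GTPase, rose from at most 0.837 CPM in DMSO_siNT to 1.37 to 4.29 CPM in 4OHT_siNT, FLCN, which acts on the Rag GTPases, by 0.62 ± 0.11 and MTOR by 0.59 ± 0.23, whereas RRAGB and MITF fell by 0.73 and 0.49. At so low a level in DMSO_siNT the filter kept RRAGD mainly for its 4OHT values, so its rise was built in. LAMTOR4, a subunit of the Ragulator complex, was called lower with all libraries (log2 -1.29, adjusted p = 0.0293) but was at 475.6 CPM in DMSO_siNT 4-2V against at most 84.2 CPM in the others, and without that library it was not called (log2 -0.14, adjusted p = 0.488). RRAGC and LAMTOR3 rose with the knockdown, by 0.55 and 0.43. Among 30 autophagy genes 13 rose (43.3%) and 3 fell in senescence (median 0.23), with SQSTM1, the cargo receptor p62, VPS18 and WIPI1 higher by 1.07, 1.00 and 0.82 and MAP1LC3A, ULK2 and ATG3 lower by 1.76, 0.76 and 0.71. With the knockdown 2 rose, MAP1LC3A by 0.68 ± 0.20 and ATG7 by 0.34 ± 0.09. Without DMSO_siNT 4-2V, 10 of the autophagy genes were higher with the knockdown (33.3%, against 11.7% of all genes) and 1 was lower (3.33%, against 12.9%).

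Of 8 inhibitors of cysteine cathepsins listed, 5 passed the filter on low counts, and 4 of these were higher in senescence. CST1, CST2 and CST4 were nearly absent in DMSO_siNT and passed the filter through the 4OHT groups. A fall in senescence could not have been seen for them, so the count of 4 says little about the list. CST1 was at no more than 0.837 CPM in DMSO_siNT and at 66.3 to 132 CPM in 4OHT_siNT, CST4 had at most 3 counts in any DMSO_siNT library and 21.1 to 31.6 CPM in 4OHT_siNT, and CST2 at most 1 count and 2.37 to 6.75 CPM. CST1, CST2 and CST4 are close copies of each other, so reads may be split between them. CST3, cystatin C, was at 202 to 345 CPM in DMSO_siNT and at 603 to 933 CPM in 4OHT_siNT. With the knockdown, within VM sets, CST1, CST3 and CST4 were lower and CSTB, the inhibitor that stays in the cell, was higher (log2 0.54, adjusted p = 0.0146), calls that were not made with all libraries in the fit.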

How the data were processed

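RNA was sequenced from poly(A) libraries (NEBNext Ultra II Directional, single-end). The authors deposited raw read counts per gene symbol, 2 lanes per library, with no normalization, and the processing notes name STAR 2.7.8a, DESeq2 1.36.0 and hg38. The counting program and its strand setting are not given in the sources used here. Lanes were summed to 18 libraries. The labels tie 17 to samples, and the other, whose name gives its group but matches no sample, was kept as a replicate with no set label.

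Genes were filtered with filterByExpr (minimum count 10), scaled by TMM and tested in 1 fit of group means with edgeR 4.0.16 (quasi-likelihood test, R 4.3.3), with Benjamini-Hochberg adjustment over 13136 genes and a threshold of 0.05. The fit was tested on simulated data. DESeq2 1.42.0, other filters, VM sets, single siRNAs and a set block were alternatives. CPM are on the TMM scale, and fold changes compare groups in the fit. Counts allow intervals for counting error only, and 9657309 to 18039313 counts per library leave the spread between libraries as the larger error. The 41 genes, the roles and the other lists were chosen with earlier results of these data known. Genes described in full were GLB1, TFEB, TFE3 and, in senescence and with the knockdown, up to 5 called genes with the largest change in each direction. Others of the 41 are named by role, and up to 3 called genes per direction from each related list, with a mean log2 CPM above 1. CST3 and CSTB were added after their values were seen. A gene that this rule would name is not reported here. Coordinates are from GENCODE 44 on GRCh38, and promoters from RefSeq.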

Additional observations from a re-analysis of the deposited data

Results flagged for a closer look

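In 13 of 123 sets of 6 libraries (41 genes in 3 groups) the highest or lowest library lay apart from the others, its gap to the nearest library divided by the range exceeding Dixon's critical value, where chance gives about 6.15. Of these, 10 were the library DMSO_siNT 4-2V. It was the lowest for GLB1 (52.1 CPM, the nearest at 82.4, ratio 0.708), MAN2B1 (56.4 and 86.9 CPM, ratio 0.783), CTSA (156 and 345 CPM, ratio 0.876), CTSD (273 and 504 CPM, ratio 0.742), CTSZ (39.1 and 85.6 CPM, ratio 0.633), ASAH1 (47.9 and 86.7 CPM, ratio 0.763) and TFE3 (40.9 and 159 CPM, ratio 0.914). It was the highest for CTSB (3429 and 1410 CPM, ratio 0.733), CTSL (347 and 161 CPM, ratio 0.733) and MCOLN1 (71.6 and 45.9 CPM, ratio 0.681). The others were GAA in DMSO_siNT 2-1V (75.5 CPM, the nearest at 59.1, ratio 0.635), TFEB in DMSO_siNT 2-2V (4.03 and 5.74 CPM, ratio 0.725) and CTSZ in 4OHT_siSMARCA4 4-3V (52.7 and 101 CPM, ratio 0.815).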

How the results depend on the processing

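In senescence the number of lysosome genes called higher went from 20 to 13 with the set as a replicate block and 12 when a change over 1.5-fold was asked for, and the number called lower from 5 to 3 with the block, with siNT 4 alone and at an adjusted p under 0.01, and to 2 over 1.5-fold. The median log2 fold change of 0.41 became 0.29 in VM sets and with the block without DMSO_siNT 4-2V, 0.28 in VM sets with the unlabelled library (an alternative chosen after seeing the data) and 0.28 with siNT 2 alone. With the knockdown the calls, 7 higher and 2 lower with all libraries, were 2 and 0 with the block, 12 higher with the block without DMSO_siNT 4-2V, 18 and 4 with only the 2 groups compared, 15 higher in VM sets, 19 and 5 in VM sets with the unlabelled library, 13 and 1 with siNT 2 alone, 4 higher with siNT 4 alone, 1 and 0 with siSMARCA4_4 alone, 15 and 4 without DMSO_siNT 4-2V, and 4 and 1 over 1.5-fold. For knockdown over DMSO_siNT, 1 gene was lower over 1.5-fold against 3, and the median of 0.55 was 0.68 in VM sets, with or without the unlabelled library, and without 4OHT_siSMARCA4 4-2V. The causes of these shifts were not tested, beyond the smaller numbers of libraries that some settings hold.

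Leaving out each library in turn gave 18 to 22 higher, 4 to 5 lower and a median of 0.35 to 0.42 in senescence. With the knockdown it gave 5 to 15 higher, 2 to 4 lower and a median of 0.18 to 0.26, and against DMSO_siNT 25 to 28 higher, 3 lower and 0.55 to 0.68. The calls of an effect that differed between siRNA pairs stayed at 0.

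Whether the set labels pair the libraries was not settled. Correlations of same-set libraries between groups were 0.151 to 0.265 for set 3VM, -0.0727 to -0.0385 for set 2VM and -0.23 for set 2V. Most results with the replicate block are given only here. Among the 18 genes described in full, these log2 fold changes changed sign. In senescence NPC2 was -0.15 with siNT 4 alone and -0.0033 to 0.13 on leaving out libraries. With the knockdown GLB1 was -0.023 in VM sets with the unlabelled library, -0.066 with siNT 4 alone, -0.060 with siSMARCA4_2 alone and -0.014 to 0.052 on leaving out libraries, TFEB -0.077 with siNT 4 alone, LIPA -0.019 with siNT 2 alone and TFE3 0.0083 with the block. CTSS was -0.15 with the block, -0.062 with the block without DMSO_siNT 4-2V, -0.10 in VM sets and -0.13 with the unlabelled library added. SMPD1 was 0.0058 with all genes of at least 1 count, 0.044 with the block without DMSO_siNT 4-2V, 0.066 in VM sets, 0.041 with the unlabelled library added, 0.054 with siNT 4 alone and -0.057 to 0.019 on leaving out libraries. Of the other values of named genes under these alternatives, 458 kept direction and side of the threshold, 19 crossed it to a call and 41 lost one. CTSS has no value with at least 10 counts in every library. Depth limits CTSS, FUCA1, NPC1 and TFEB most, with 9, 24, 44 and 48 counts in their lowest libraries.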
